A study of Mus musculus with 16 samples.

Results

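The genes described here are 34 genes of glycolysis and of the transcriptional response to low oxygen, measured by RNA sequencing in mouse periodontal ligament, the fibrous tissue that holds a tooth in its socket. They were taken by symbol from a count matrix of 55359 genes, and all 34 were found and passed the expression filter, so all 34 were tested among 20953 genes. The 16 libraries came from wild-type C57BL/6J male mice, 9 weeks old when operated on. There were 4 groups of 4 libraries. Control mice had no treatment. In the ligature group a silk thread was tied around the upper left second molar, a procedure that retains plaque and sets off periodontitis. In the trauma group composite resin was built up on the biting surface of the same tooth, which overloads it. The ligature plus trauma group had both. The labels do not give the time between the operation and sampling, or whether a library holds the tissue of 1 animal or of several, so p-values measure the spread between these libraries. Libraries held between 58458102 and 77468584 counted reads.

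In low oxygen the hypoxia-inducible factor (HIF) alpha subunits escape the prolyl hydroxylases that otherwise mark them for destruction, and the stabilised factor switches on genes for glucose uptake, for nearly every step of glycolysis and for lactate export. It also switches on genes for acid handling, mitophagy and its own negative feedback. The periodontal ligament under load and the inflamed pocket around a plaque-retaining thread are both known settings for reduced oxygen supply, and activated immune cells and osteoclasts raise glycolysis as well. The members are ordered below as transporters (Slc2a1, Slc2a3, Slc16a3), 13 glycolytic enzymes, 3 regulators of glycolytic flux (Pfkfb3, Pfkfb4, Pdk1), 3 muscle-enriched glycolytic genes (Pfkm, Pgam2, Eno3), the oxygen sensors with Hif1a, and 9 other hypoxia targets.

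The tissue label was checked against marker genes. The 8 periodontal ligament fibroblast markers, among them Postn, Tnmd and Aspn, summed to between 30503 and 87454 CPM in a library, where CPM is the count scaled to a common library total. Other cell types were present in all groups, and no marker was at 0 in a whole group. The 8 osteoclast markers summed to between 816 and 3811 CPM in control libraries and between 9755 and 13974 CPM in ligature libraries. The 12 oral epithelium markers summed to between 1532 and 12725 CPM in controls, 1590 and 2512 CPM with ligature, 4701 and 30319 CPM with trauma, and 851 and 2797 CPM with both. The 15 skeletal muscle markers stood at 294 CPM in control 3, 1441 CPM in ligature 2 and 282 CPM in ligature 3, against 7.75 to 180 CPM elsewhere. In 3 libraries, numbers 2 and 3 of the group with both treatments and number 2 of the ligature group, short transcripts were over-represented: the rank correlation of level with transcript length across genes was between -0.433 and -0.355, against -0.165 to 0.329 in the others. In bulk tissue, fewer cells of a type and less RNA per cell cannot be told apart.

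Glycolytic enzyme transcripts were the most abundant members. On the per-length scale (reads per base of transcript, scaled to the same sum in each library), the mean level over the 16 libraries was 1000.8 for Ldha, the lactate dehydrogenase subunit that turns pyruvate into lactate, 768 for the pyruvate kinase gene Pkm, 654 for the aldolase gene Aldoa and 597 for the enolase gene Eno1. The SD over libraries of all groups was between 163 and 307 for these 4 genes. Differences between them within a library were not tested. The abundance of Bnip3, a mitophagy receptor, was 258, and that of Hif1a was 143. At the low end Aldoc, the aldolase gene typical of brain, stood at 4.41, and Car9, a cell-surface carbonic anhydrase that exports acid from hypoxic cells, at 1.40. Car9 values rest on 25 to 368 reads per library.

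The comparison of ligature with control asked how the thread alone changed these genes. Car9 and 4 genes of the middle part of glycolysis rose, and no member fell. The 4 enzyme genes were Gpi1 (glucose phosphate isomerase), Aldoa, Tpi1 (triose phosphate isomerase) and Pgk1 (phosphoglycerate kinase, which forms ATP). Of the 34 members 5 were thus called higher and 0 lower at an adjusted p under 0.05, beside 10.7% of all tested genes called in either direction, 5.88% higher and 4.78% lower. The median log2 fold change was 0.09 over the members and -0.05 over all tested genes. Within the 13 glycolytic enzymes 11 had a positive fold change, with a median of 0.61. Osteoclast markers rose in the same comparison (7 of 8 passed), as did 7 of 10 mature neutrophil markers and 5 of 6 endothelial markers (468 to 677 CPM in sum, against 162 to 302 CPM in controls). Of the 8 fibroblast markers 4 fell and 1 rose, and 4 of 8 osteoblast markers fell. All 12 oral epithelium markers had negative fold changes, and 7 of them passed. The part of these cell types in the members' changes was not tested.

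Car9 was at 0.338, 0.436, 0.669 and 0.351 CPM in controls 1 to 4 and at 4.32, 7.18, 1.57 and 3.98 CPM in ligature libraries 1 to 4. Every ligature library was above every control. The log2 fold change was 3.24 ± 0.60 (SE, n = 4 per group), a 9.46-fold difference, with an adjusted p of 0.00343. The call was kept in 27 of 28 alternative analyses and lost with an epithelium score as covariate (adjusted p 0.120), where the log2 fold change was 2.68.

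Pgk1 was at 156, 172, 135 and 108 CPM in the controls and at 311, 356, 255 and 260.3 CPM with ligature. The groups did not overlap, and all ligature libraries were well above the highest control, with a log2 fold change of 1.05 ± 0.24 and an adjusted p of 0.0131. Without the 3 libraries highest in muscle genes (control 3, ligature 2 and ligature 3) it was 0.95 with an adjusted p of 0.149. That fit had fewer libraries in both groups, so a call lost there cannot be assigned to muscle.

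Gpi1, the enzyme that interconverts the phosphates of glucose and fructose, was at 115, 101, 85.6 and 92.1 CPM in the controls and at 179, 249, 130 and 175 CPM with ligature. Its log2 fold change was 0.89 ± 0.20 with an adjusted p of 0.0118. The groups did not overlap, although ligature 3 lay close to control 1. The call was lost in a fit of the compared groups alone (adjusted p 0.0561), without the 3 muscle-high libraries (0.0810) and with the epithelium covariate (0.0649).

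Aldoa was at 498, 397, 361 and 324 CPM in the controls and at 746, 1424, 517 and 698 CPM with ligature. The groups did not overlap, and ligature 2, the library with the most muscle RNA, was the highest. The log2 fold change was 1.10 ± 0.27 with an adjusted p of 0.0165. It was 0.71, still past the threshold, without the 3 libraries shifted to short transcripts, ligature 2 among them, and 0.81 with an adjusted p of 0.0953 without the 3 muscle-high libraries. The call was kept in 24 of 28 alternatives. The other losses were a fit of the compared groups alone (adjusted p 0.0806), the epithelium covariate (0.0707) and the fit without control 4 (0.0529). Aldoa is also the aldolase of skeletal muscle.

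Tpi1 was at 209, 238, 223 and 168 CPM in the controls and at 313, 816, 293 and 302 CPM with ligature. Here ligature 2 stood far above the other 3 ligature libraries, which lay close together and above every control. The log2 fold change was 1.04 ± 0.31 with an adjusted p of 0.0443. The call was kept in 10 of 28 alternatives, 5 of the 16 that leave out a library. Without ligature 2 the log2 fold change was 0.51 with an adjusted p of 0.172, and in the other leave-one-out fits that lost the call it stayed between 0.95 and 1.11. Tpi1, Pgk1, Aldoa, Ldha, Eno1 and Pgam1 have processed pseudogenes in the mouse genome, and how the counting assigned shared reads is not given in the sources used here.

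**Figure D1:**
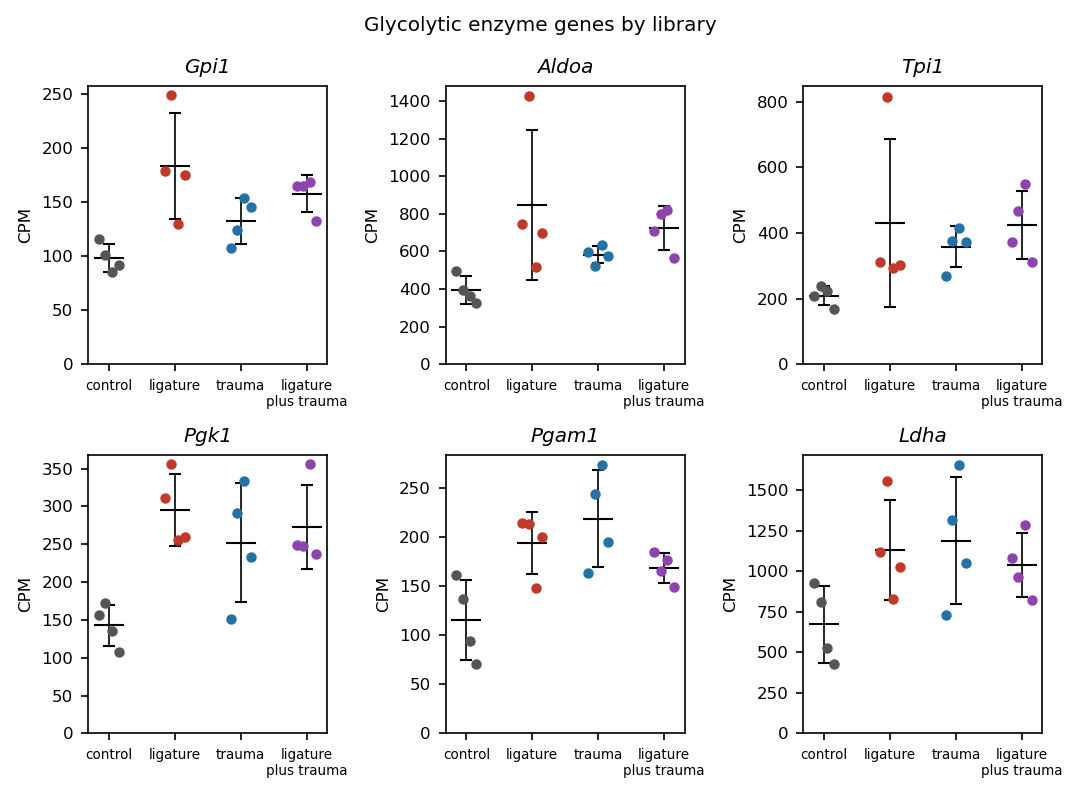
CPM of 6 glycolytic enzyme genes in each library (points), with the group mean and SD (bars, n = 4 per group), on linear axes that start at 0. In Gpi1, Aldoa, Tpi1 and Pgk1 every ligature library lies above every control, and ligature 2 is far above the rest for Tpi1 (816 CPM) and Aldoa (1424 CPM).

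The remaining enzymes did not pass in this comparison. Pgam1, the phosphoglycerate mutase of non-muscle tissue, had a log2 fold change of 0.74 ± 0.25 with an adjusted p of 0.0624. Ldha was at 925, 812, 523 and 426 CPM in the controls and at 1116, 1557, 830.1 and 1026 CPM with ligature, and the groups overlapped. Its log2 fold change was 0.75 ± 0.30 (95% interval 0.12 to 1.39) with an adjusted p of 0.115. Hk2, the inducible hexokinase that traps glucose in the cell, was at 38.0, 29.5, 7.01 and 10.7 CPM in the controls and at 27.4, 25.0, 17.6 and 21.3 CPM with ligature. All ligature libraries fell inside the range of the controls, and the log2 fold change was 0.10 (95% interval -1.03 to 1.23, adjusted p 0.929). Hk1, Pfkl, Pfkp, Aldoc, Eno1 and Pkm had log2 fold changes between -0.40 and 0.61, with adjusted p between 0.186 and 0.818.

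The transporters did not move together. Slc2a1, the GLUT1 glucose carrier, was at 110.5, 91.7, 41.8 and 26.4 CPM in the controls and at 104, 29.9, 32.8 and 39.4 CPM with ligature. Controls 1 and 2 and ligature 1 were high and the other libraries of both groups low. This gave a log2 fold change of -0.39 ± 0.51 with an adjusted p of 0.674. With the epithelium score as covariate the sign turned, to 0.35 (adjusted p 0.869). Slc2a3, the high-affinity GLUT3 carrier, had a log2 fold change of -0.78 ± 0.34 (adjusted p 0.148), and its highest ligature library (35.9 CPM) was below its lowest control (46.0 CPM). Slc16a3, the lactate exporter MCT4, was at 25.2, 33.7, 10.9 and 10.1 CPM in the controls and at 40.0, 21.7, 27.8 and 41.2 CPM with ligature. The ranges overlapped, and its log2 fold change was 0.71 ± 0.41 with an adjusted p of 0.279.

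The flux regulators and the oxygen sensors did not pass either. Pfkfb3, which makes the allosteric activator of phosphofructokinase, was at 102.7, 67.9, 28.3 and 34.9 CPM in the controls and at 52.0, 53.2, 45.5 and 66.2 CPM with ligature, a log2 fold change of -0.11 ± 0.33 (adjusted p 0.871). Its ligature libraries all lay within the control range. Pfkfb4, a related enzyme, had a log2 fold change of -0.03 (adjusted p 0.971) and Pdk1, a kinase that keeps pyruvate out of mitochondrial oxidation, a value of -0.39 (0.415). Hif1a, the regulated HIF subunit, was at 420.5, 470.2, 287 and 319 CPM in the controls and at 499.7, 143, 495 and 444 CPM with ligature. Ligature 2 was the lowest of all 16 libraries, and the other 3 ligature libraries lay in or just above the upper part of the control range. The log2 fold change was 0.08, with a 95% interval from -0.74 to 0.90 (adjusted p 0.921). HIF alpha is regulated mainly at the protein level, which was not measured. The log2 fold change was -0.67 ± 0.31 (adjusted p 0.174) for the oxygen sensor gene Egln1 and -1.42 ± 0.62 (0.152) for Egln3.

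Among the other hypoxia targets the directions were mixed. Ligature lay wholly above control for 2 of the 9, Car9 and P4ha1 (a collagen prolyl hydroxylase subunit, log2 fold change 0.40, adjusted p 0.235). It lay wholly below control for Mxi1, a MYC antagonist, at -0.67 ± 0.22 (adjusted p 0.0661). Over all 34 members the ranges did not overlap for 6 higher genes (background 9.97% of genes) and 2 lower genes (9.15%). Adm, which encodes the vasodilator peptide adrenomedullin, was at 4.77, 5.16, 7.80 and 6.04 CPM in the controls and at 10.9, 4.43, 4.12 and 2.57 CPM with ligature, on both sides of the controls. Its log2 fold change was -0.11 ± 0.43 (adjusted p 0.902). Bnip3 (-0.42), Ndrg1 (-0.60), Kdm3a (-0.32) and Ddit4 (-0.21) had negative log2 fold changes and Ankrd37 a positive one (0.11), with adjusted p between 0.117 and 0.915.

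**Figure D2:**
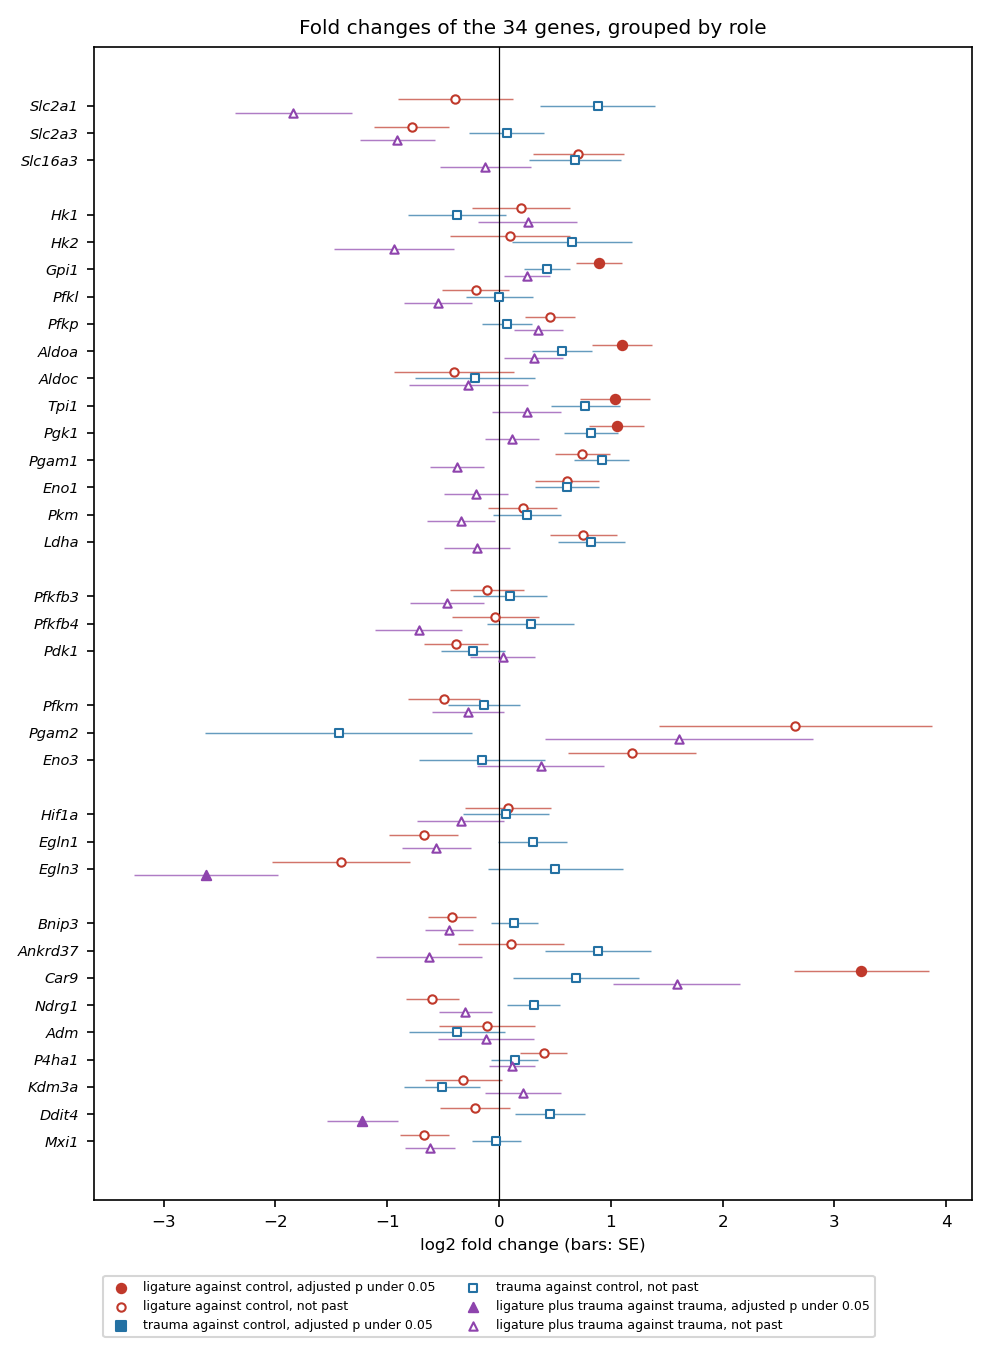
Log2 fold changes with SE (horizontal bars) of the 34 genes, ordered by role from transporters at the top to other hypoxia targets at the bottom, for ligature against control, trauma against control, and ligature plus trauma against trauma (n = 4 libraries per group). Filled symbols passed an adjusted p of 0.05: 5 for ligature against control, all to the right of 0, and 2 for ligature plus trauma against trauma, both to the left.

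The promoter windows of Car9 and Pgk1, the members with the most stable calls for ligature, are shown because both are classical HIF targets. HIF binds a short core with the letters ACGTG, and capitals mark every match on either strand. The sequences are RefSeq's for mouse GRCm38.p6, 250 bases before to 50 bases after the annotated start, printed along the gene's strand. Car9 is at chr4:43506776-43507075 (plus strand) and its match begins 18 bases before the start. Pgk1 is at chrX:106186850-106187149 (plus strand), with matches that begin 150 and 131 bases before the start.
Car9: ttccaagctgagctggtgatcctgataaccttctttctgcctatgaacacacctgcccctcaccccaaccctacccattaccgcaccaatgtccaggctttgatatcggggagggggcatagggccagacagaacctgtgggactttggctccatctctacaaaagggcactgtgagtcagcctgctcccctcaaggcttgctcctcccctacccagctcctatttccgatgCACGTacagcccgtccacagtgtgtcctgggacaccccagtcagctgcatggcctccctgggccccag
Pgk1: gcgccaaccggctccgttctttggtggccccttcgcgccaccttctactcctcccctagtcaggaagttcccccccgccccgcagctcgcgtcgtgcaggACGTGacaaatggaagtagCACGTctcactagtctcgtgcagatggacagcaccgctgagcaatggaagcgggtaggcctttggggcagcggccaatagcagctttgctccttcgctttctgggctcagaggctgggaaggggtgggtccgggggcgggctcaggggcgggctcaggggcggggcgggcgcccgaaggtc
A window was given for 32 of the 34 members (49 windows). ACGTG stood in 25 of the 49 windows, 51.0%, against 19.6% of all 32851 windows of the same length. GCGTG, the other common form of the core, stood in 51.0% against 32.4%, and either form in 77.6% against 43.8%. Matches of both forms may share bases, and each window counts once. CACGTG, which reads ACGTG on both strands, stood in 10.2% of member windows and 7.15% of all. Member windows were richer in G and C, with a median of 62.3% against 52.7%, and letters such as these occur more often in such sequence. Of the 5 members that rose with ligature, Car9, Pgk1 and Aldoa had ACGTG in a window, and Gpi1 and Tpi1 did not. The members were chosen as genes of glycolysis and of the response to low oxygen, so these motif shares are no finding from the expression data. A match of letters is a description and does not show binding.

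The comparison of trauma with control asked what overload alone did. No member passed: 0 of 34, beside 0.00477% of all tested genes (1 gene) under an adjusted p of 0.05. At an unadjusted p under 0.05 there were 5 members, beside 6.92% of all genes, and all 5 were glycolytic enzymes with positive fold changes. DESeq2 called 1 member, Pgam1, with an adjusted p of 0.0497. The shares above are those of the edgeR fit, and the share of all genes called by DESeq2 is not given here. Nothing particular to Pgam1 is read from that call. The members with the lowest p were Pgam1, with a log2 fold change of 0.92 ± 0.25 (adjusted p 0.499), Pgk1 at 0.82 ± 0.24 (0.547) and Ldha at 0.82 ± 0.30 (0.664). Pgk1 was at 151, 291, 333 and 233 CPM and Ldha at 732, 1316, 1655 and 1052 CPM in trauma libraries 1 to 4, so trauma 1 lay inside the control range for both.

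Positive fold changes were common among the members all the same. Of the 34 members 25 (73.5%) had a positive log2 fold change for trauma, with a median of 0.27, against 50.8% of all genes and a median of 0.01. Among the glycolytic enzymes 11 of 13 were positive, with a median of 0.56. Trauma libraries lay wholly above control for 3 members, Aldoa, Tpi1 and Pgam1 (background 3.65%), and wholly below for 1, Kdm3a, a hypoxia-induced histone demethylase (background 3.28%). The neutrophil markers, which belong to a strongly glycolytic cell type, summed to between 215 and 771 CPM in controls and between 692 and 4828 CPM with trauma. These ranges overlapped, and 0 of the 10 markers passed, though all 10 fold changes were positive. The 12 oral epithelium markers summed to between 1532 and 12725 CPM in controls and between 4701 and 30319 CPM with trauma. Of them 8 had positive fold changes and 0 passed. The part of either cell type in these values was not tested.

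The comparison of ligature plus trauma with control shares its control libraries with the comparisons above, so it is no independent repeat of them. In it 5 members were higher and 1 was lower, beside 12.5% of all genes in either direction, 6.83% higher and 5.62% lower. The members with the lowest p were Car9, Pgk1 and Egln3, a HIF prolyl hydroxylase that is itself a HIF target. Car9 was at 2.35, 0.783, 3.83 and 1.75 CPM, above all controls, with a log2 fold change of 2.27 ± 0.58 (adjusted p 0.0213). Pgk1 was at 249.7, 248, 356 and 237 CPM, a log2 fold change of 0.93 ± 0.24 (0.0229). Egln3 fell, by 2.12 ± 0.63 on the log2 scale (0.0399). Beyond these 3, Gpi1 (0.68, adjusted p 0.0403), Tpi1 (1.02, 0.0428) and Aldoa (0.87, 0.0428) were higher; they are named after their values were seen. The median log2 fold change was -0.16 over the members and -0.08 over all genes.

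These calls stood close to the threshold. Without ligature plus trauma 3 none of the 6 passed, and without the 3 libraries shifted to short transcripts, or with the epithelium covariate, the count was also 0. Leaving out the shifted libraries took numbers 2 and 3 from the group with both treatments, so fewer libraries remained to compare. Over the 28 alternatives the calls were kept in 22 for Pgk1, 21 for Car9, 16 for Tpi1, 14 for Egln3, 13 for Gpi1 and 12 for Aldoa. The ranges did not overlap for 5 higher members (background 10.8%) and 3 lower members (10.4%). The 3 lower ones were Slc2a3, Adm and Mxi1.

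The comparison of ligature plus trauma with trauma asked what the thread added to an overloaded tooth. Here 2 members fell, Egln3 and Ddit4, and 0 rose, beside 5.48% of all genes called in either direction, 3.27% lower and 2.21% higher. Egln3 was at 8.11, 23.8, 28.6 and 14.4 CPM in trauma libraries 1 to 4 and at 1.04, 2.31, 2.41 and 6.39 CPM in ligature plus trauma libraries 1 to 4. The groups did not overlap, at a log2 fold change of -2.62 ± 0.64 with an adjusted p of 0.0261. The call was kept in 19 of 28 alternatives, 11 of the 16 that leave out a library.

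Egln3 and the oral epithelium markers were high in many of the same libraries, though not in all. Controls 1 and 2, with 12238 and 12725 CPM of those markers, had 19.4 and 21.7 CPM of Egln3. Controls 3 and 4, with 3407 and 1532 CPM, had 5.87 and 5.82 CPM. Ligature libraries 1 to 4 had 9.11, 5.64, 2.997 and 2.04 CPM of Egln3. Trauma 1, with 10312 CPM of the markers, had less Egln3 (8.11 CPM) than trauma 4 (14.4 CPM), with 4701 CPM. With both treatments the order was the opposite at its ends: library 1 had the most markers (2797 CPM) and the least Egln3, and library 4 the fewest (851 CPM) and the most. The part of epithelium in the Egln3 values was not tested beyond the covariate fit. The epithelium score was between 0.64 and 4.09 with trauma and between -3.12 and -0.56 with both. Without overlap in the score, epithelium and the added ligature cannot be told apart in that fit. With the epithelium score as covariate the log2 fold change of Egln3 between ligature plus trauma and trauma was -1.36 with an adjusted p of 0.859, and between ligature plus trauma and control it was -0.90 with an adjusted p of 0.699. All 12 epithelium markers had negative fold changes in that comparison with trauma, and 9 of the 12 passed. The count ratio of Egln3 to Egln1, the main and more widely expressed oxygen sensor of the family, was lower with ligature than without by 1.43 on the log2 scale. The exact permutation p was 0.0498, and 0.249 after adjustment over the 10 ratio tests.

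Ddit4 encodes REDD1, an inhibitor of mTOR signalling induced by low oxygen and other stresses. It was at 14.7, 12.2, 6.14 and 14.2 CPM with trauma and at 2.95, 5.44, 7.02 and 4.80 CPM with both. Trauma 3 lay inside the range of the other group, and the remaining 3 trauma libraries were above it, at a log2 fold change of -1.22 ± 0.32 with an adjusted p of 0.0320. The call was kept in 16 of 28 alternatives, 10 of the 16 that leave out a library. It was lost with the epithelium covariate, where the log2 fold change was -2.05 (adjusted p 0.164).

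Slc2a1 missed the threshold, with a log2 fold change of -1.84 ± 0.53 and an adjusted p of 0.0524. It was at 35.5, 163, 110.0 and 190 CPM with trauma and at 33.8, 31.6, 39.7 and 34.2 CPM with both. The ligature plus trauma libraries were tightly grouped, and trauma 1 fell among them. In 9 of 28 alternatives it passed, and without trauma 1 the log2 fold change was -2.15 (adjusted p 0.0246). With the epithelium covariate it was -1.09 (adjusted p 0.834). Over the 34 members the ranges were non-overlapping for 0 higher (background 5.74%) and 2 lower genes (7.31%), Egln3 and Mxi1. The median log2 fold change was -0.28 over the members and -0.02 over all genes.

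**Figure D3:**
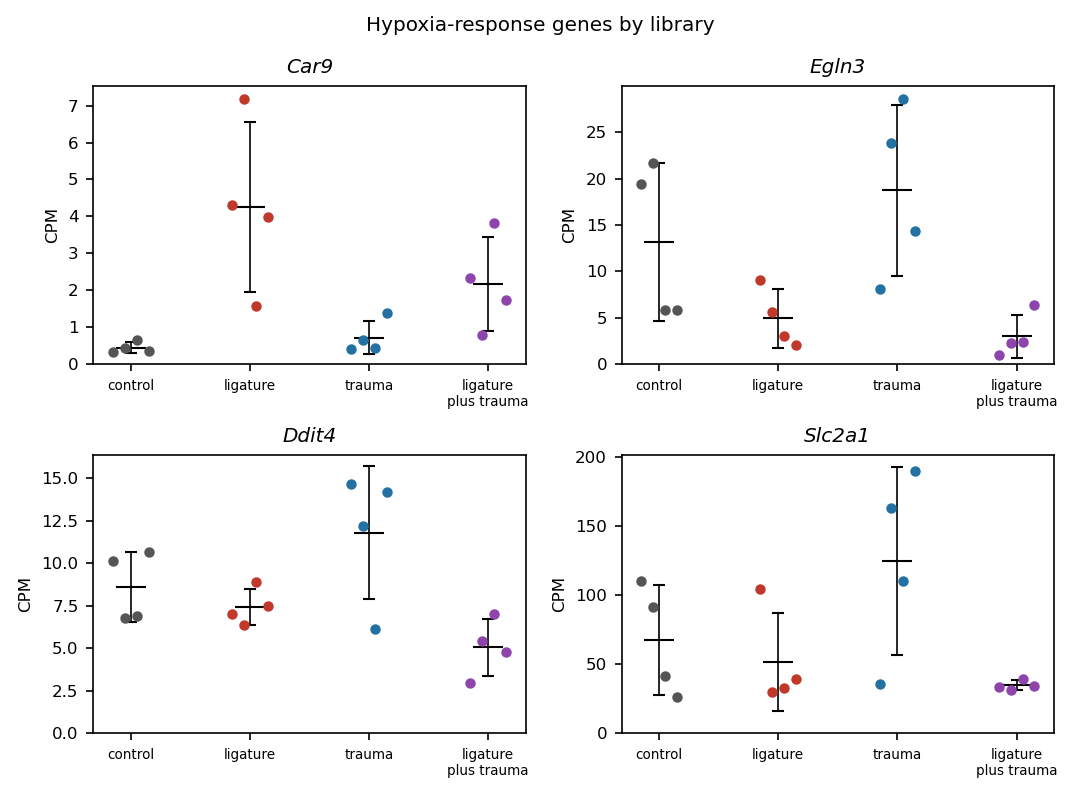
CPM of Car9, Egln3, Ddit4 and Slc2a1 in each library (points), with the group mean and SD (bars, n = 4 per group), on linear axes that start at 0. Car9 is higher in ligature and in ligature plus trauma than in any control, and Egln3 is lower in every ligature plus trauma library than in every trauma library.

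The promoter windows of Egln3 and Ddit4 are printed because these were the members that fell. Egln3 is at chr12:54203825-54204124 and Ddit4 at chr10:59951721-59952020, both on the minus strand of GRCm38.p6. Their single ACGTG matches, in capitals, begin 229 and 187 bases before the start, farther upstream than that of Car9. Egln3 and Ddit4 were called lower against trauma, whereas Car9 and Pgk1 were called higher against control. These comparisons differ, so nothing about the motif is read from the directions.
Egln3: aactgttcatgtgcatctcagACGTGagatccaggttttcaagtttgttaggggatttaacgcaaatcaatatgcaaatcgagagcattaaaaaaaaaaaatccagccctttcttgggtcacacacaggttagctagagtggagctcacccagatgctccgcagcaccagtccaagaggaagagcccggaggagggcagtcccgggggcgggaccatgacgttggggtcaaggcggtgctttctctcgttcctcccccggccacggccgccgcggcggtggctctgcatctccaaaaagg
Ddit4: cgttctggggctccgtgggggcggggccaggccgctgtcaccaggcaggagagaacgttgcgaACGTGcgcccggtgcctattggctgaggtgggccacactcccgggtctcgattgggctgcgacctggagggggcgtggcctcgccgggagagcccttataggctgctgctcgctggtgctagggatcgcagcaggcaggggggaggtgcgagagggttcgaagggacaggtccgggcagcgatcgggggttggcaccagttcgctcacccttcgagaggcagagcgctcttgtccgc

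Adding trauma to a ligature changed no member at an adjusted p under 0.05: 0 of 34, beside 0% of all genes. At an unadjusted p under 0.05 there was 1 member, beside 3.50% of all genes, and DESeq2 called 0 members. That member was Ndrg1, a stress-responsive gene induced by hypoxia, with a log2 fold change of 0.60 ± 0.24 (adjusted p 1). It was at 47.7, 52.6, 46.8 and 61.3 CPM with ligature and at 74.3, 77.7, 78.1 and 85.8 CPM with both, without overlap (1 member higher, background 0.663%, and 0 lower, background 0.778%). Pgam2 (-2.48 ± 1.21) and Ddit4 (-0.55 ± 0.31) had the next lowest p. The Pgam2 value turned to 0.24 without ligature 2, and had a positive sign in 4 of 28 alternatives, up to 1.49. All 13 glycolytic enzymes had a negative fold change, between -0.39 and -0.02, with a median of -0.21. Of the 34 members 26 were negative, with a median of -0.21 against -0.01 for all genes.

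The interaction term asks whether the effect of trauma differed with and without a ligature. No member passed (0 of 34, beside 0% of all genes), by DESeq2 also 0. At an unadjusted p under 0.05 there were 5 members, beside 4.93% of all genes. The lowest p belonged to Pgam1, with an interaction of -1.12 ± 0.35 on the log2 scale (adjusted p 0.938), then Pgk1 at -0.94 ± 0.34 (0.993) and Ddit4 at -1.01 ± 0.44 (1). Pgam1 was at 162, 137, 94.5 and 71.0 CPM in the controls, 215, 214, 148 and 201 CPM with ligature, 164, 244, 274 and 195 CPM with trauma, and 185, 165, 177 and 149 CPM with both. Each treatment alone thus had a higher mean than control, and the mean with both lay between control and either alone. Of the 34 members 26 had a negative interaction, with a median of -0.60 against -0.02 for all genes. The interaction is the value for ligature plus trauma against ligature minus that for trauma against control. This count thus restates the sign counts of those comparisons. The members were measured in the same libraries, so their signs are not independent, and the sign counts were not tested.

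Isoform pairs were compared by their count ratio within each library, which does not depend on scaling between libraries. Of 10 tests (5 pairs, each for ligature and for trauma) 1 passed. The ratio of Pfkp, the platelet-type phosphofructokinase found in many proliferating cells, to Pfkl, the liver type, was higher with ligature. The log2 ratio was 0.33, 0.61, 1.09 and 0.96 in controls 1 to 4, 1.09, 1.57, 1.15 and 1.47 with ligature, 0.95, 0.47, 0.60 and 0.81 with trauma, and 1.54, 1.67, 1.77 and 1.55 with both. The lowest ligature library lay at the level of the highest control, and all ligature plus trauma libraries lay above all trauma libraries. The mean was 1.48 in the 8 libraries with a ligature and 0.73 in the 8 without, a difference of 0.75. The exact two-sided permutation test within trauma status gave p = 0.000408, the smallest that 4900 relabellings allow, and 0.00408 after adjustment over the 10 tests. Over 19 alternatives the difference was between 0.665 and 0.807, and the highest adjusted p was 0.0286. None of these alternatives took account of epithelium. Controls 1 and 2, with 12238 and 12725 CPM of oral epithelium markers, had lower ratios than controls 3 and 4, with 3407 and 1532 CPM. Trauma 1, with 10312 CPM, had a higher ratio than trauma 4, with 4701 CPM. The part of epithelium in this ratio was not tested. Neither gene passed alone for ligature against control, at a log2 fold change of 0.46 ± 0.22 for Pfkp and -0.21 ± 0.30 for Pfkl. The trauma effect on this ratio was 0.14 (exact permutation p 0.289). The ratios of Slc2a3 to Slc2a1, Hk2 to Hk1 and Pfkfb4 to Pfkfb3 gave adjusted p between 0.755 and 0.797 for both effects, and Egln3 to Egln1 0.755 for trauma.

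**Figure D4:**
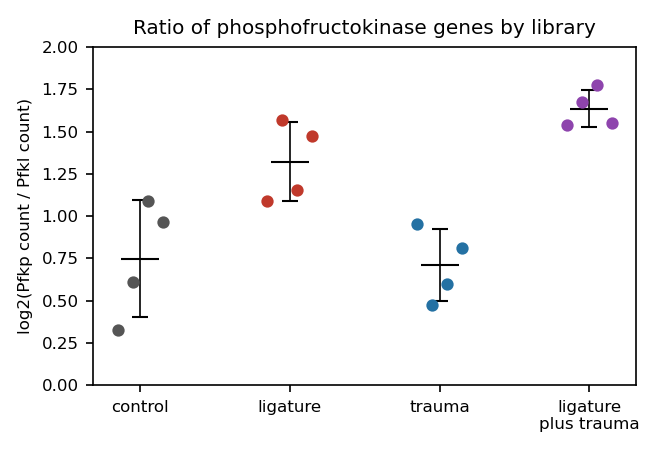
Log2 ratio of Pfkp to Pfkl counts in each library (points), with the group mean and SD (bars, n = 4 per group). Means are 0.75 in control, 1.321 with ligature, 0.71 with trauma and 1.63 with both, so the groups with a ligature lie above those without.

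The 3 muscle-enriched glycolytic genes are given apart because they are known from skeletal muscle, whose markers differed between libraries. Pgam2, the muscle phosphoglycerate mutase, was at 1.55, 0.899, 3.15 and 0.688 CPM in the controls and at 0.315, 35.1, 3.24 and 0.953 CPM with ligature. It was at 0.470, 0, 1.14 and 0.719 CPM with trauma and at 1.35, 3.45, 0.651 and 1.66 CPM with both. Ligature 2 was by far the highest library, as it was for the muscle markers. Its log2 fold change for ligature against control was 2.65 ± 1.22 (adjusted p 0.175), and -0.09 without ligature 2, -0.08 without the 3 libraries shifted to short transcripts and -0.74 without the 3 muscle-high libraries.

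Eno3, the muscle enolase, was at 4.33, 6.07, 15.7 and 4.23 CPM in the controls and at 5.04, 44.6, 12.6 and 7.03 CPM with ligature. With trauma it was at 5.44, 6.71, 5.78 and 9.37 CPM, and with both at 7.22, 8.80, 10.5 and 8.84 CPM. The 3 highest levels were those of ligature 2, control 3 and ligature 3, the same 3 libraries that were highest in muscle markers. Its log2 fold change for ligature against control was 1.19 ± 0.57 (adjusted p 0.193), and 0.095 without ligature 2 (0.949). It was 1.83 without control 3 (0.0688). Pfkm, the muscle phosphofructokinase, was at 19.1, 12.9, 15.1 and 20.1 CPM in the controls and at 5.58, 16.6, 16.003 and 9.69 CPM with ligature. With trauma it was at 22.2, 14.9, 9.46 and 14.7 CPM and with both at 14.7, 12.9, 10.5 and 12.4 CPM. It did not stand out in the muscle-high libraries, and its log2 fold change for ligature was -0.49 ± 0.32 (adjusted p 0.347). The 5 members called for ligature against control did not include these 3 genes, so leaving them out could not change that count.

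**Figure D5:**
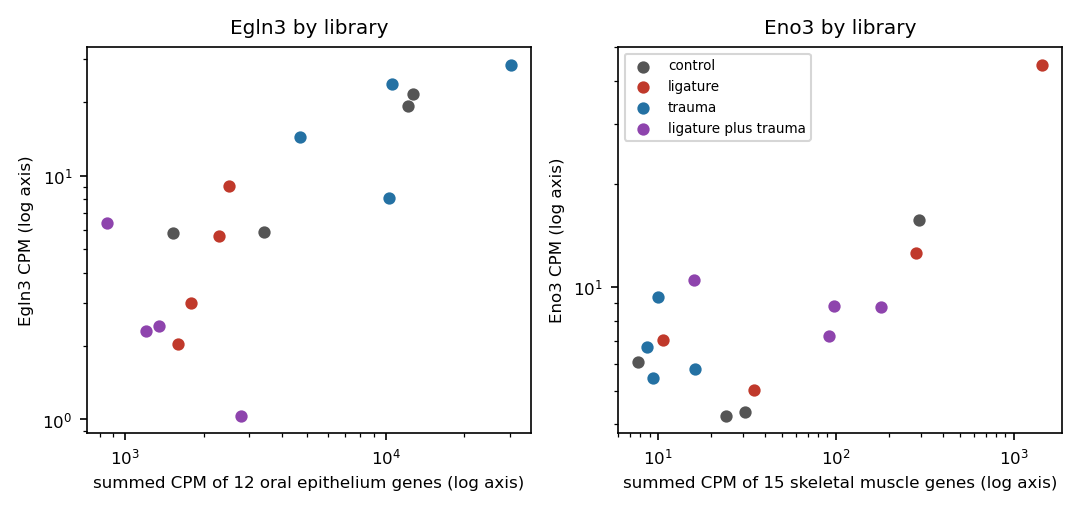
Left, CPM of Egln3 against the summed CPM of 12 oral epithelium genes; right, CPM of Eno3 against the summed CPM of 15 skeletal muscle genes; each point is 1 of the 16 libraries, coloured by group, on log axes. The 4 libraries with the most epithelium RNA, controls 1 and 2 and trauma 2 and 3, have the most Egln3, trauma 1 has 8.11 CPM of Egln3 at 10312 CPM of epithelium genes, and ligature 2 (1441 CPM of muscle genes) has the most Eno3 (44.6 CPM).

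The rest of the pathway was read from lists chosen by function. Of 26 other glycolysis genes 23 were tested, the rest being too low. For ligature against control 3 were higher and 1 lower. Gapdh, the dehydrogenase in the middle of the pathway, rose by a log2 fold change of 1.56 ± 0.37 (adjusted p 0.0145), but its many processed pseudogenes make its count uncertain. Pgm1, a phosphoglucomutase gene, rose by 0.87 (0.0377) and the lysosomal glucose carrier gene Slc2a6 by 1.96 (0.0480). Eno2, the neuronal enolase, fell by 0.98 (0.0175). For ligature plus trauma against control 4 were higher and 1 lower, and against trauma 0 were higher and 1 lower. That gene was Fbp2, the muscle fructose bisphosphatase of gluconeogenesis, in both. For trauma against control 0 passed. The shares of all tested genes called in these comparisons, given above, apply to this list and the next, and nothing particular to either list is read from the counts.

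All 34 genes of the second list, other HIF signalling and hypoxia genes, were tested. For ligature against control 3 were higher and 2 lower, beside 5.88% and 4.78% of all genes. Hmox1, the haem-degrading enzyme, rose by 1.51 (adjusted p 0.0132), the transferrin receptor gene Tfrc by 1.97 (0.0159) and Angptl4, an inhibitor of lipoprotein lipase, by 1.91 (0.0160). Stc2, a secreted stanniocalcin, fell by 2.34 (0.00358), and the fifth gene, Ppp1r3c, which promotes glycogen synthesis, fell by 2.44 (0.0450). For ligature plus trauma against trauma 3 were higher (Epas1, Tfrc and Lox) and 1 lower. Epas1 encodes the HIF alpha subunit typical of endothelium and rose by 1.13 (0.0238), while Stc2 fell by 3.20 (0.00175). In the same comparison 4 of 6 endothelial markers passed as higher, with a median log2 fold change of 1.24 and sums of 487 to 699 CPM with both against 136 to 309 CPM with trauma. Their part in the Epas1 value was not tested. For ligature plus trauma against control 4 were higher and 3 lower, and for trauma against control 0 passed. Vegfa, the best known HIF target, did not pass for ligature, at a log2 fold change of -0.12 (adjusted p 0.885). It was chosen after its values were seen. Hmox1, Tfrc and Angptl4 are also controlled by haem, iron and lipid signals, and the 6 erythroid markers summed to between 1064 and 22026 CPM with ligature and between 2473 and 13415 CPM in controls, a share in the result that was not tested.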

How the data were processed

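Bulk RNA of periodontal ligament was sequenced after poly(A) enrichment, per the labels' protocols. Per the submitters' processing notes, the tools were HISAT2 2.2.1 and StringTie 2.1.7 with Trimmomatic 0.39, FastQC 0.11.9 and DESeq2 1.32.0, on GRCm39. How reads were counted, and on which strand, is not given in the sources used here. The authors deposited whole-number read counts per gene, not normalized, for 16 libraries; 52083 of 55359 IDs matched a symbol, and the IDs without one held 0.205% of the counts. Symbol Aldoa has 2 rows, and the more abundant was used. The members and lists were chosen with earlier results of these data known.

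Counts were fitted for all libraries together with edgeR 4.0.16 (R 4.3.3): TMM scaling, filterByExpr with a minimum count of 10, the quasi-likelihood test with 12 residual degrees of freedom, and Benjamini-Hochberg adjustment over 20953 genes, with calls at an adjusted p under 0.05. SE is the log2 fold change divided by the root of F. CPM uses TMM-scaled totals. Per-length levels use median transcript lengths of GENCODE M21. Isoform ratios used exact permutation within strata with a pseudocount of 1. The edgeR fit was tested on simulated counts for ligature against control only, and the other steps were not tested in this way. Alternatives were 16 leave-one-out fits and 12 others, among them limma-voom (limma 3.58.1) and DESeq2 1.42.0. All 34 members are named; values in every library were given for a fixed panel, the muscle trio and up to 6 called members of the ligature against control and ligature plus trauma against trauma comparisons, and the lowest p chose up to 3 members elsewhere and up to 4 per pathway list. The highest correlation between libraries was 0.948, so none was a copy of another.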

Additional observations from a re-analysis of the deposited data

Results flagged for a closer look

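Of 136 groups of 4 libraries (34 genes by 4 groups), 9 held a library separated from the other 3 by more than Dixon's 95% critical gap, where chance gives about 1 in 20 groups. Ligature 2 accounted for 4 of them. In that library Tpi1 was at 816 CPM against 293 to 313 CPM, Pgam2 at 35.1 CPM against 0.315 to 3.24 CPM, Hif1a at 143 CPM against 444 to 499.7 CPM, and Pdk1, a kinase that shuts pyruvate out of mitochondria, at 10.1 CPM against 23.98 to 26.7 CPM. Its skeletal muscle markers summed to 1441 CPM, and its level to length correlation was -0.433.

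Elsewhere, Slc2a1 was at 104 CPM in ligature 1 against 29.9 to 39.4 CPM in the other ligature libraries. Gpi1 was at 132 CPM in ligature plus trauma 4 against 165 to 169 CPM. Pgk1 was at 356 CPM in ligature plus trauma 3 against 237 to 249.7 CPM. Pdk1 was at 27.3 CPM in trauma 3 against 21.9 to 22.7 CPM. Eno3 was at 15.7 CPM in control 3 against 4.23 to 6.07 CPM.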

How the results depend on the processing

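Members called for ligature against control numbered 5 in the reported fit, 2 when the compared groups alone were fitted, 1 without the 3 muscle-high libraries, 8 with the length trend removed, 4 with an epithelium covariate (1 shared with the reported 5) and 3 to 5 when a library was left out, the 3 without control 4. For ligature plus trauma against control 6 became 2 with no expression filter, 0 without the 3 libraries shifted to short transcripts, 0 with the epithelium covariate and 0 to 8 over the leave-one-out fits (0 without ligature plus trauma 3, 8 without ligature 2). For ligature plus trauma against trauma 2 became 1 with no filter, 0 without the 3 shifted libraries, 0 with a muscle covariate, 0 with the epithelium covariate and 0 to 3 over the leave-one-out fits (0 without trauma 2, ligature plus trauma 1 or ligature plus trauma 2). For trauma against control 0 became 1 with DESeq2 and stayed 0 when any library was left out. The cause was not tested, and the epithelium score went with ligature, as given above, so a call lost with that covariate cannot be assigned to epithelium. The interaction and ligature plus trauma against ligature counts were 0 throughout. The share of all genes called under each setting is not set beside the counts in this section. They describe the calls only, and nothing particular to the members is read from them. Removing the length trend moved the median log2 fold change of all genes from -0.05 to 0.13 for ligature against control, and all 5 calls were kept.

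Replicate numbers did not pair the libraries: 5 of 24 same-number pairs correlated over 0.1 (range -0.157 to 0.215), and 4 of 16 libraries correlated best with their own number. With the number as a replicate block the counts were 5 for ligature against control, 4 for ligature plus trauma against control and 0 for ligature plus trauma against trauma, where the adjusted p was 0.0561 for Egln3 and 0.0669 for Ddit4. No called member changed sign. The 13 calls gave 364 values under alternatives, of which 246 kept the call and 118 lost it. Among the other single-gene values 10 gained a call, and 30 had a log2 fold change that moved by at least its SE in the reported fit. Uncalled values took the opposite sign for ligature against control in 1 alternative for Slc2a1, 3 for Hk2, 4 for Pfkfb3, 3 for Hif1a, 5 for Adm and 4 for Pgam2. No ratio test changed its call.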
